A study of Mus musculus with 12 samples.

Results

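The control libraries of the study were compared with each other in 2 sets, PBS 1 to 3 and PBS 4 to 6, which are 6 of the 12 libraries of the series. They were chosen by the replicate number in their titles, and the comparison was made over all expressed genes, once with PBS 1 and once without it. The study sequenced RNA with poly(A) tails from the optic nerve of mice of an NF1 model, in which the neurofibromatosis type 1 gene is the disease gene. The 6 control libraries are labelled PBS (phosphate-buffered saline), and the other 6 are labelled carboplatin, a platinum drug that binds DNA (3 libraries), or selumetinib, a MEK kinase inhibitor (3 libraries). The labels call the cell type nerve cells. The Nf1 allele, the strain, the age, the sex, the dose, the schedule and the hour of collection are not given in the sources used here. Nothing in the labels says that the libraries came from separate mice, so the p-values below measure the spread between these libraries. The library names in the labels number PBS 1 to 3 and carboplatin 1 to 3 from 1 to 6, and PBS 4 to 6 and selumetinib 1 to 3 from 7 to 12. What this order stands for is not stated there, and no batch, date or operator is labelled.

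As background, the circadian clock is a loop in which the factors CLOCK, NPAS2 and BMAL1 (gene Arntl) switch on their own repressors, the PER and CRY proteins and the REV-ERB receptors, so that genes at opposite arms of the loop peak at opposite times of day. RBM3 and CIRBP are RNA-binding proteins whose levels rise with mild cooling and follow the daily rhythm of body temperature. Chaperones fold proteins in separate compartments: the heat shock factor HSF1 drives those of the cytosol, and the unfolded protein response, through ATF6 and XBP1, drives those of the endoplasmic reticulum (ER). The optic nerve itself holds oligodendrocytes, astrocytes, microglia, vessels and a sheath of meninges, and it lies beside extraocular muscle and behind the retina.

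The 6 libraries held 22558698 to 29779508 counts each. PBS 1 stood apart before any gene was tested. Across genes, the correlation of log2(CPM + 1) between libraries was 0.986 to 0.990 within PBS 4 to 6, 0.963 between PBS 2 and PBS 3, and 0.786 to 0.852 between PBS 1 and any other control library (CPM is the usual depth-scaled count, here with the TMM factors of edgeR). Genes of skeletal muscle made up 8.29% of all counts in PBS 1, but 0.0402% and 0.0569% in PBS 2 and 3 and 0.00289% to 0.00343% in PBS 4 to 6. The genes of mature oligodendrocytes, the myelin-forming cells of this nerve, took 2.27% in PBS 1 and 6.69% to 7.90% in the other 5, and those of astrocytes 0.427% and 1.39% to 1.76%. The defining glial markers were thus present in every library, and took a lower share of counts in PBS 1. PBS 1 also had no count of the Y-linked gene Ddx3y and 425 CPM of Xist, the RNA that silences an X chromosome in females. The other 5 held 73.3 to 114 CPM of Ddx3y and at most 1.41 CPM of Xist. The glial values are shares of all counts, so more counts of other genes, such as those of muscle, also lower them. In bulk tissue, fewer cells of a type, less RNA per cell and more RNA of other tissue cannot be told apart.

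With PBS 1 in the set, no gene passed. Of 17292 genes tested with the quasi-likelihood test of edgeR, 0 had a Benjamini-Hochberg adjusted p under 0.05 (0%), while 1547 had an unadjusted p under 0.05, DESeq2 passed 410 and limma voom with quality weights 17. The common dispersion, the squared coefficient of variation between libraries of a set beyond counting error, was 0.221. The 2 sets did not overlap at all for 2102 genes higher in PBS 1 to 3 (12.2% of those tested) and 1862 lower (10.8%). Without PBS 1 the dispersion was 0.0621 and 85 of 17534 genes passed (0.485%), 54 higher in PBS 2 and 3 (0.308%) and 31 lower (0.177%). Some of the 85 had hardly any counts in 1 set and entered the test only through the other. Myh13 and Krt4 are such cases among the higher genes and Serpina1b among the lower, so the 2 counts and their shares are descriptions. DESeq2 passed 1080 and voom 72. At an unadjusted p under 0.05 there were 1367 genes higher (7.8%) and 1407 lower (8.02%). The libraries of the sets did not overlap for 3103 genes higher (17.7%) and 2969 lower (16.9%), and the counts in gene lists below are read against these shares. Below, "passed" means an adjusted p under 0.05 in edgeR, a positive log2 fold change means higher in PBS 2 and 3 than in PBS 4 to 6 with PBS 1 left out unless said otherwise, and ± is a standard error derived from the test.

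The 85 genes rested on few libraries. Leaving out PBS 4 left 8 passed genes, PBS 5 left 21 and PBS 6 left 19, while 650 passed without PBS 2 and 527 without PBS 3, where the 1 library left in the first set is assumed to vary like the second set. Dbp was the only gene among the 85 that passed under all 12 alternatives of this comparison. No gene of the 85 changed sign under any of them. Of the 54 higher genes, 13 belonged to the skeletal muscle list, and 30 were more than 20 times as high in PBS 1 as in PBS 2 and 3. Of the 31 lower genes, 0 did either. PBS 1 was not used for these calls. For 50 of the 54 and 27 of the 31 it lay, like PBS 2 and 3, beyond all of PBS 4 to 6. Over all genes tested, the sets were apart and higher for 3103 genes without PBS 1 and for 2102 with it. The lower counts were 2969 and 1862. PBS 4 to 6 were used for the calls, so these counts are descriptions. Muscle and mucosal epithelium genes took higher and red blood cell and lymphocyte genes lower shares of counts in the first set, as given with their values below, and the part of these cells in the clock, temperature and chaperone values was not tested.

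All 25 genes of the clock list were tested. Of these, 5 passed and rose, against 0 that fell, beside 0.308% and 0.177% of all genes tested. Another count, at an unadjusted p under 0.05, was 10 higher and 3 lower, beside 7.8% and 8.02%. The median log2 fold change was 0.27, beside 0.01 over all genes. DESeq2 passed 9 higher and 2 lower, voom 3 and 0.

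The clock's output factor DBP, which binds D-box elements in target promoters, had the clearest difference. Dbp was at 238.8, 168 and 179 CPM in PBS 1, 2 and 3 and at 34.1, 41.4 and 32.8 CPM in PBS 4, 5 and 6. The sets were thus far apart, and PBS 1 was the highest of all. The log2 fold change was 2.26 ± 0.12 without PBS 1 (adjusted p = 0.00188) and 2.44 with it (unadjusted p = 1.8e-05, adjusted p = 0.156). Of the factors related to DBP, Tef was at 284, 182 and 189 CPM against 124, 137 and 132 CPM (log2 fold change 0.50, adjusted p = 0.0666). Nfil3, which represses through the same D-box, had a log2 fold change of -0.70 and did not pass (adjusted p = 0.213).

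Of 6 repressor genes 3 passed and rose, beside 0.308% of all genes tested. Per1, a period gene that also responds at once to light and to glucocorticoids, was at 42.3, 83.0 and 72.3 CPM against 44.3, 33.9 and 35.7 CPM. Here PBS 1 lay within the range of PBS 4 to 6, and PBS 2 and 3 were above it (log2 fold change 1.03 ± 0.14, adjusted p = 0.0400). Per3, a period gene not required for the core loop, was at 49.3, 49.5 and 48.1 CPM against 28.5, 29.1 and 32.2 CPM. Its 3 first libraries were nearly equal and apart from the others (0.70 ± 0.10, adjusted p = 0.0455). Ciart, also called CHRONO, a repressor of CLOCK and BMAL1, was at 5.16, 11.3 and 10.8 CPM against 3.15, 1.73 and 2.29 CPM (2.21 ± 0.28, adjusted p = 0.0359). Per2, which is required for a normal rhythm, was at 19.3, 36.0 and 21.7 CPM against 12.7, 9.85 and 10.7 CPM, and its groups did not overlap, but it did not pass (1.38 ± 0.23, adjusted p = 0.0738). Cry1 and Cry2, the partners of the PER proteins, did not pass, with log2 fold changes of -0.41 and 0.27.

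Nr1d1 encodes REV-ERB alpha, a receptor that represses Arntl. It was at 290, 244 and 260 CPM against 130, 154 and 131 CPM, with no overlap (0.86 ± 0.10, adjusted p = 0.0325). Its close relative Nr1d2 was at 207, 131 and 119 CPM against 83.2, 87.0 and 85.6 CPM (0.55, adjusted p = 0.0575). The activator arm had the other sign. Arntl was at 13.1, 16.7 and 7.11 CPM against 26.4, 25.1 and 27.7 CPM, and every library of the first set was below every library of the second (-1.16 ± 0.36, adjusted p = 0.231). Npas2 was at 7.63, 6.41 and 5.77 CPM against 11.8, 11.0 and 11.2 CPM (-0.90 ± 0.16, adjusted p = 0.0814). Clock itself was nearer to 0 (-0.15). All 3 activators had a negative log2 fold change and none passed.

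Reads of overlapping genes limit some of these values, since the strand setting of the counting is not given. Dbp (chromosome 7, 45705088 to 45710203, plus strand, GRCm38) overlaps Sphk2 on the opposite strand. Sphk2, a sphingosine kinase, passed as well, at 149, 94.1 and 104 CPM against 47.8, 54.9 and 49.5 CPM (0.96, adjusted p = 0.0212). Nr1d1 overlaps Thra, and Ciart overlaps an antisense transcript, so their reads cannot be told apart without strand either. Per3 overlaps Camta1 on the same strand, where even a known strand would not part the reads.

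Promoter sequence from RefSeq (GRCm38.p6) was searched over 250 bases before the start site, on both strands, for the E-box CACGTG, to which CLOCK and BMAL1 bind, and for the D-box TTATGNAA, to which DBP binds. The 2 motifs share no position in the stretches shown. Of the 25 clock genes 20 had a window, and Per2 had none. The E-box letters were in 6 of their 29 windows (20.7%) and in 6.02% of all 32851 windows. The D-box letters were in 3 of 29 (10.3%) and in 3.07% of all. Stretches of the windows of 3 passed genes are shown because they carry these letters, in capitals. Dbp and Nr1d1, the other passed clock genes, gave no match to either motif here.

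Ciart: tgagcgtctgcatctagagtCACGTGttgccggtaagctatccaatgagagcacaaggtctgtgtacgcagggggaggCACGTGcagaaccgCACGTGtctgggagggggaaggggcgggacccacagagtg

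Per1: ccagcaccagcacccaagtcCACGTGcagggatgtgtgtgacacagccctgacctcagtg

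Per3: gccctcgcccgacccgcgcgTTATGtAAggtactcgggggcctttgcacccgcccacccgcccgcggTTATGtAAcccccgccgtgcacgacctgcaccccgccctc

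The Ciart stretch (chr3:95882233-95882364, minus strand) holds 3 E-boxes. The Per1 stretch (chr11:69098763-69098822, plus strand) holds 1 E-box, and the same window also holds 1 D-box, in chr11:69098905-69098948. The Per3 stretch (chr4:151044784-151044890, minus strand) holds 2 D-boxes. A match describes the letters and not binding, which was not measured. Among the 5 clock genes with an E-box here, 2 passed, and 4 had a positive log2 fold change. Over all 25 clock genes, 5 passed and 18 had a positive log2 fold change.

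**Figure D1:**
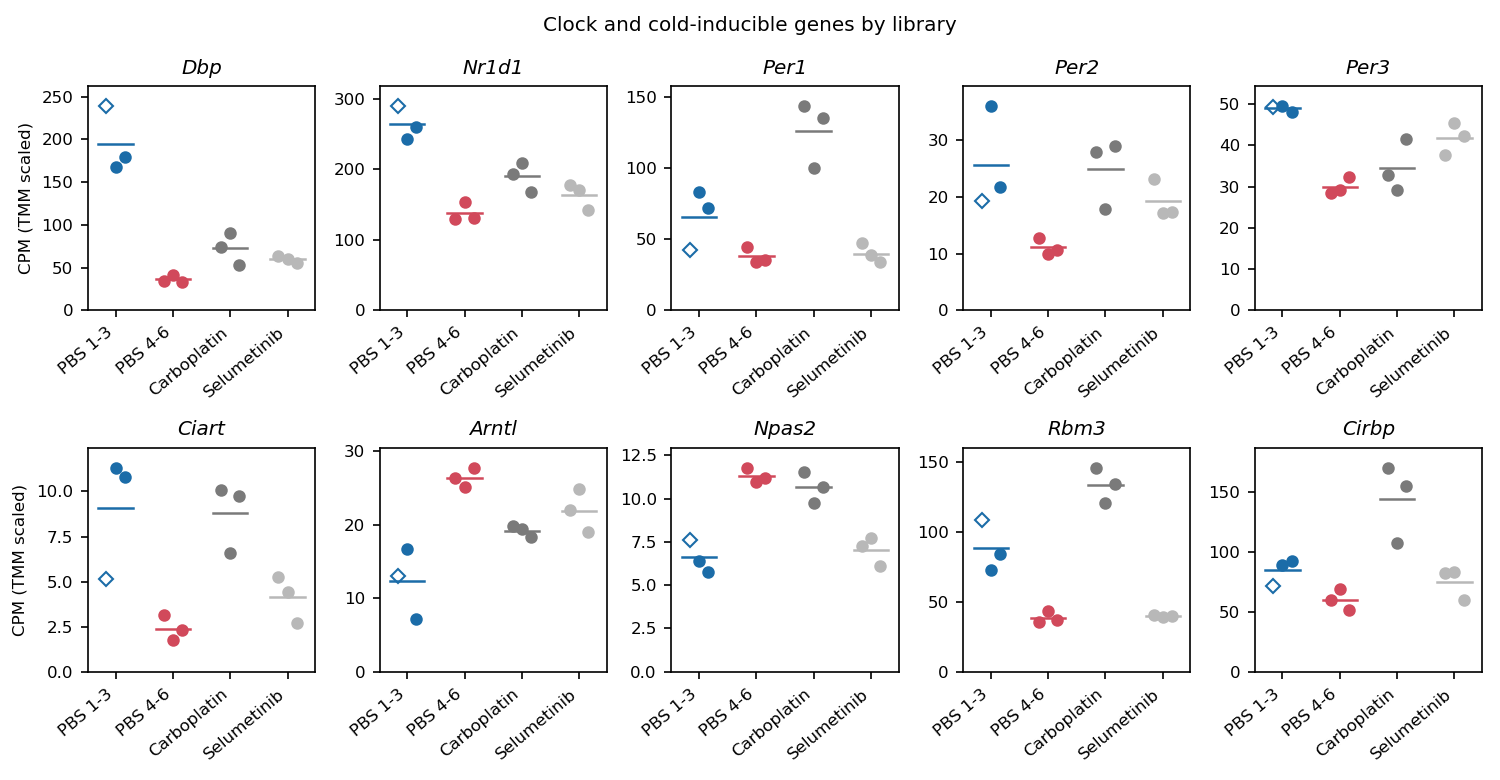
CPM (TMM scaled, linear axes from 0) of 10 clock and cold-inducible genes in all 12 libraries. Points are libraries, the open diamond is PBS 1 and the line is the group mean. Dbp lies between 168 and 238.8 CPM in PBS 1 to 3 and between 32.8 and 41.4 CPM in PBS 4 to 6, while Arntl and Npas2 are lower in PBS 1 to 3.

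The cold-inducible RNA-binding proteins were higher in the first set. Rbm3 was at 108.4, 72.7 and 84.1 CPM in PBS 1 to 3 and at 35.6, 43.2 and 37.3 CPM in PBS 4 to 6. All 3 libraries of the first set lay above all 3 of the second (1.02 ± 0.12, adjusted p = 0.0306). With PBS 1 the log2 fold change was 1.19 (unadjusted p = 0.000617, adjusted p = 0.45). Cirbp was at 71.9, 89.3 and 92.4 CPM against 59.6, 68.7 and 51.4 CPM and did not pass (0.60 ± 0.13, adjusted p = 0.111). The 2 sets did not overlap for Cirbp, but PBS 1 and PBS 5 were close. Rbm3 is overlapped by the antisense gene Rbm3os. Over all 12 libraries, the genes whose CPM followed that of Rbm3 most closely by rank were Uvrag (Spearman correlation 0.951), Rbm17 (0.944), Nosip, Gm17300 and Zkscan5 (each 0.937). These correlations describe 12 libraries of 4 groups that share treatments.

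Other genes tied to temperature differed less. Of 11 splicing factors known to respond to temperature 0 passed, with log2 fold changes of -0.07 to 0.31 and a median of 0.13. The heat shock factors, 4 genes, had 0 passed. Hsf1, the master regulator of cytosolic chaperones, was at 58.1, 20.5 and 26.9 CPM against 27.8, 27.1 and 33.9 CPM (-0.32, adjusted p = 0.4), so PBS 2 and 3 were just below PBS 4 to 6 and PBS 1 was above them.

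Cytosolic chaperones mostly had lower values in PBS 2 and 3, and few passed. Of 42 genes, 1 passed and rose and 0 fell. An unadjusted p under 0.05 was reached by 3 higher and 20 lower genes, and the median log2 fold change was -0.20. DESeq2 passed 3 higher and 16 lower, and voom 0 and 1. With PBS 1 in the set the median was -0.04, and 3 higher and 4 lower genes reached that unadjusted p.

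Hsph1 and Chordc1 had the smallest p-values among the lower genes. Hsph1, an HSP110 exchange factor, was at 96.0, 79.5 and 58.7 CPM against 137, 125 and 127 CPM, with no overlap (-0.91 ± 0.14, adjusted p = 0.0621). Hspa4l, of the same family, had a log2 fold change of -0.76 (adjusted p = 0.0985). Chordc1, a partner of HSP90, was at 45.9, 26.0 and 29.0 CPM against 50.2, 42.7 and 44.7 CPM (-0.74 ± 0.11, adjusted p = 0.0621). Its PBS 1 value lay within the range of PBS 4 to 6. Hsp90aa1, the inducible HSP90 of the cytosol, was at 230, 525 and 407 CPM against 809, 739 and 776 CPM (-0.74, adjusted p = 0.0792). Hspa8, the constitutive HSP70, was at 1469, 578 and 584 CPM against 1052, 881 and 880 CPM. PBS 1 was the highest of the 6 for Hspa8 and PBS 2 and 3 were the lowest, so that the log2 fold change was -0.69 ± 0.12 without PBS 1 (adjusted p = 0.0717) and -0.10 with it. This last value turned to 0.11 without PBS 2 and to 0.13 without PBS 3.

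The stress-inducible HSP70 pair varied widely within PBS 4 to 6. Hspa1b was at 66.2, 5.86 and 5.77 CPM against 52.9, 71.6 and 17.0 CPM (-3.02 ± 0.76, adjusted p = 0.208). Hspa1a was at 33.5, 8.54 and 10.7 CPM against 21.7, 32.9 and 14.1 CPM (-1.25 ± 0.38, adjusted p = 0.221). PBS 1 did not side with PBS 2 and 3 for either gene, and the near-identical sequences of the pair make the split of reads between them uncertain. All 8 subunits of TRiC, the ring that folds actin and tubulin, had negative log2 fold changes (-0.35 to -0.02) and 0 passed.

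The gene that rose was Hspb6, a small heat shock protein abundant in muscle. It was at 1427 CPM in PBS 1, at 25.4 and 25.7 CPM in PBS 2 and 3 and at 14.3, 12.4 and 11.0 CPM in PBS 4 to 6 (1.03 ± 0.14, adjusted p = 0.0452). Skeletal muscle genes moved in the same order, at 8.29%, 0.0402% and 0.0569% of counts and at most 0.00343% in PBS 4 to 6, and their part in the Hspb6 value was not tested. Hspb1, another small heat shock protein, was at 135, 40.5 and 39.9 CPM against 71.1, 66.2 and 53.9 CPM. PBS 1 was the highest and PBS 2 and 3 the lowest, and the log2 fold change was -0.67 without PBS 1 (adjusted p = 0.099) and 0.16 with it.

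ER chaperones were lower in the first set, with or without PBS 1. All 35 genes of the list were tested. Of these, 6 passed and fell and 0 rose, against 0.177% of all genes that fell. At an unadjusted p under 0.05 there were 23 lower and 2 higher, and the median log2 fold change was -0.43. DESeq2 passed 18 lower and 1 higher, and voom 5 and 0. With PBS 1 included, 24 of the 35 had every library of the first set below every library of the second, 3 were apart the other way and 0 passed, with a median of -0.46. Together the 35 genes took 0.260%, 0.353% and 0.360% of counts in PBS 1 to 3 and 0.568%, 0.532% and 0.498% in PBS 4 to 6, so the summed levels did not overlap. Shares of other lists moved the same way. The lymphocyte list took 0.00339% to 0.00368% of counts in PBS 1 to 3 and 0.00559% to 0.00828% in PBS 4 to 6. Its 7 B cell genes, which include antibody genes, had a median log2 fold change of -2.84, and its 9 T and NK cell genes -0.08. The matrix list, written after the values of 8 members were seen, took 0.179% to 0.209% and 0.261% to 0.313%. The part of these lists in the ER values was not tested.

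Hspa5, or BiP, the HSP70 of the ER and the sensor that holds its stress receptors inactive, was at 309.8, 280.5 and 285 CPM in PBS 1 to 3 and at 698, 689 and 604 CPM in PBS 4 to 6. The first set stood well below the second in every library (-1.23 ± 0.10, adjusted p = 0.00903). With PBS 1 the log2 fold change was -1.18 (adjusted p = 0.45). Hsp90b1, the HSP90 of the ER, was at 275, 346 and 335 CPM against 581, 526 and 505 CPM and did not pass (-0.66, adjusted p = 0.0583). Hyou1, an exchange factor for BiP, did not pass either (-0.86, adjusted p = 0.0622).

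Other genes of ER folding fell as well. Sdf2l1, a cofactor that works with J proteins, was at 15.4, 16.5 and 13.9 CPM against 34.8, 31.3 and 32.5 CPM (-1.12 ± 0.12, adjusted p = 0.0250). Dnajc3, a J protein that also inhibits the kinase PERK, was at 115, 186 and 193 CPM against 295, 287 and 278 CPM, with PBS 1 the lowest (-0.60 ± 0.08, adjusted p = 0.0420). Manf, a chaperone that binds BiP and is secreted under stress, was at 58.2, 54.0 and 52.5 CPM against 109.8, 110.0 and 97.9 CPM (-0.99 ± 0.09, adjusted p = 0.0132). Its gene overlaps Dcaf1 and Rbm15b in the annotation. Calr, a lectin chaperone that folds glycoproteins and stores calcium, was at 371, 293 and 293 CPM against 553, 500 and 469 CPM (-0.80 ± 0.10, adjusted p = 0.0377). Its sister Canx, which is anchored in the membrane, had a log2 fold change of -0.18 and did not pass. Xbp1, the transcription factor that is spliced under ER stress, was at 108, 82.1 and 77.5 CPM against 138, 135 and 132 CPM (-0.76 ± 0.08, adjusted p = 0.0219). Gene counts do not tell its spliced form from the unspliced one.

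The disulfide isomerases and ERO1 oxidases, which together pair cysteines, had 5 of 6 genes lower at an unadjusted p under 0.05 and 0 passed. Pdia6 and Pdia4 had log2 fold changes of -0.94 and -0.91 (adjusted p = 0.0580 and 0.06). The 8 unfolded protein response factors of the list, Xbp1 among them, were mixed. Of their log2 fold changes 3 were positive and 5 negative (-0.76 to 3.59), and no higher gene passed. In the PERK arm, Atf4 and Ddit3 had opposite signs and neither passed. Atf4, its transcription factor, was at 190, 67.6 and 86.2 CPM against 64.7, 65.4 and 64.8 CPM (0.24, adjusted p = 0.369). Ddit3, its target CHOP, was at 46.6, 31.3 and 33.3 CPM against 31.7, 40.5 and 37.4 CPM (-0.18, adjusted p = 0.56). Clgn, a relative of calnexin known from the testis that is not on the list and was named after its values were seen, fell as well (-0.99, adjusted p = 0.0420).

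The ER stress element is the pair of letters CCAAT and CCACG with 9 bases between them, bound by NF-Y and ATF6. It was searched in the same RefSeq windows on both strands. A window was found for 28 of the 35 genes, and Manf and Hyou1 had none. The element was in 9 of the 28 (32.1%) and in 37 of all 32851 windows (0.113%). CCAAT alone, which overlaps it by construction, was in 33.8% of all windows. Of all 35 genes of the list, 29 had a negative log2 fold change and 6 passed. All 9 genes with the element had a negative log2 fold change (median -0.78), and 3 of them passed. The windows of these 3 and of Hsp90b1 are shown because they share this spacing, with the letters in capitals.

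Hspa5: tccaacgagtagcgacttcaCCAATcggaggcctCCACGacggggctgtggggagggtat

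Calr: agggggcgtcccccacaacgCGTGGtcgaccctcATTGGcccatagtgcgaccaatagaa

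Dnajc3: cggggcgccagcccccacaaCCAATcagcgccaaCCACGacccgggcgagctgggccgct

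Hsp90b1: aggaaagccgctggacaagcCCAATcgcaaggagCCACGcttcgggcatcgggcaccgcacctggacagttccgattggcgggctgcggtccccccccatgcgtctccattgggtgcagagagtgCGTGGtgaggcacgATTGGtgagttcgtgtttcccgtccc

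The Hspa5 window is chr2:34772005-34772064 on the plus strand and that of Dnajc3 is chr14:118937807-118937866 on the plus strand. That of Calr is chr8:84847054-84847113 on the minus strand, where the element lies in reverse. That of Hsp90b1 is chr10:86705512-86705676 on the minus strand and holds the element in both orientations. The other passed members with a window, Sdf2l1 and Xbp1, had no such letters in these 250 bases.

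The heat shock element is 3 alternating copies of GAA and TTC, each parted by 2 bases. It was in 2 of the 48 windows of cytosolic chaperone genes (4.17%) and in 0.466% of all windows. Both were windows of Dnajb6 that hold the same site. By gene it was 1 of 36 (2.78%), beside 0.514% of all genes with a window. Over the 12 libraries the genes closest in rank to Hspa5 were Zfp207, Nedd4 and Snx2 (correlation 0.937 each), Manf (0.916) and Papola (0.909), again as a description.

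Of 9 mitochondrial chaperone genes 0 passed, and the median was -0.04. Hspd1, the HSP60 of the matrix, was at 291, 109 and 105 CPM against 134, 130 and 127 CPM (-0.29, adjusted p = 0.154). With PBS 1 the median was 0.58. PBS 1 alone gave 0.122% of its counts to the list, against 0.0657% to 0.0717% in the other 5 libraries.

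Red blood cell genes took 0.116%, 0.0890% and 0.0479% of counts in PBS 1 to 3 and 0.544%, 0.250% and 0.849% in PBS 4 to 6. Of the 12 genes 10 were tested and 0 passed. At an unadjusted p under 0.05 there were 6 lower and 0 higher, DESeq2 passed 6 and voom 0, and the median was -3.07. Of the 10, 2 entered the test through PBS 4 to 6 only. Hbb-bs, an adult beta globin, was at 730, 283.5 and 120.6 CPM against 2386, 1150 and 3891 CPM (-3.62 ± 0.80, adjusted p = 0.174). Hba-a1, an alpha globin, was at 394, 266 and 95.1 CPM against 2151, 873 and 3460 CPM (-3.58 ± 0.92, adjusted p = 0.215). Alas2, the heme enzyme of red cell precursors, was at 24.5, 18.6 and 5.83 CPM against 117, 48.5 and 171 CPM (-3.21 ± 0.90, adjusted p = 0.244). The 2 sets did not overlap for any of these 3 genes. The alpha and the beta globin genes have near copies beside them, so their counts may be shared.

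Neutrophil granule genes had the same direction with 1 exception. Of 13 genes 12 were tested, 1 passed and fell, and at an unadjusted p under 0.05 there were 10 lower and 1 higher. Of the 12, 4 had under 10 counts in each of PBS 1 to 3 and entered through PBS 4 to 6. S100a8, a calcium-binding protein of neutrophils, was at 0.930, 0.670 and 0.656 CPM against 7.64, 19.7 and 10.5 CPM (-4.24 ± 0.51, adjusted p = 0.0380). Its partner S100a9 was at 3.44, 1.42 and 3.38 CPM against 16.7, 24.3 and 15.3 CPM (-2.95 ± 0.43, adjusted p = 0.0666). The exception was Ltf, lactoferrin, which glands and mucosa also make, at 65.5, 17.6 and 50.9 CPM against 8.56, 13.5 and 7.57 CPM (1.79, adjusted p = 0.234). Genes of mucosal epithelium were also higher in the first set (below), and their part in the Ltf value was not tested.

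Antibody genes fell while T cell genes did not pass. Of 16 lymphocyte genes 2 passed and fell. Igkc, the kappa light chain, was at 3.68, 1.68 and 1.64 CPM against 22.4, 13.6 and 19.1 CPM (-3.47 ± 0.27, adjusted p = 0.00664). Igj, the joining chain of secreted antibodies, was at 1.86, 1.00 and 1.31 CPM against 12.7, 7.5 and 9.59 CPM (-3.09 ± 0.32, adjusted p = 0.0219). For both the sets were apart, PBS 1 included. Of the 7 genes of B cells and plasma cells 6 were lower at an unadjusted p under 0.05, and of the 9 genes of T and NK cells 0. Cd79b, part of the B cell receptor, was not among the passed genes (-2.17, adjusted p = 0.0990).

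Among myeloid genes, Ccr2, the chemokine receptor of blood monocytes, was at 7.82, 5.40 and 7.24 CPM against 16.1, 17.6 and 15.6 CPM (-1.38 ± 0.18, adjusted p = 0.0377). Lyz2, the lysozyme of macrophages and granulocytes, was at 242, 124 and 130 CPM against 241, 219 and 204 CPM (-0.80, adjusted p = 0.0328). PBS 1 was level with the highest of PBS 4 to 6 for Lyz2. The resident microglia did not share this: of 14 microglia genes 0 passed, with a median of 0.07. Of 6 platelet genes tested 0 passed.

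Of 20 skeletal muscle genes 13 passed and rose. All 20 were higher in each library of PBS 1 to 3 than in any of PBS 4 to 6 (DESeq2 passed 19 without PBS 1, voom 14). As 8 of them had under 10 counts in every library of PBS 4 to 6, they entered the test only through the first set, and the counts and medians are descriptions. The median log2 fold change was 5.28 without PBS 1 and 11.72 with it, and neither moved when the 3 genes with no count in PBS 4 to 6 were set at the bound that 3 counts over the group give. Acta1, skeletal actin, was at 10510, 39.1 and 56.6 CPM against 0.159, 0.495 and 0.398 CPM (7.07 ± 0.35, adjusted p = 0.00188). With so few counts in PBS 4 to 6, Acta1 too depended on the first set to enter the test, and its values are descriptions. Atp2a1, the calcium pump of fast muscle, was at 22120, 58.4 and 94.4 CPM against 1.87, 1.40 and 1.99 CPM (5.43 ± 0.26, adjusted p = 0.00188). Mylpf, a fast myosin light chain, was at 4883, 14.6 and 17.5 CPM against 1.31, 1.44 and 1.26 CPM (3.58 ± 0.20, adjusted p = 0.00188). PBS 1 was thus far above the rest, and PBS 2 and 3 were low but still apart from the second set. Over the 20 genes the level in PBS 2 was 0.125% to 0.815% of that in PBS 1 (median 0.349%), and in PBS 3 it was 0.198% to 0.795% (median 0.525%).

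Of the muscle genes, 3 had no count in PBS 4 to 6. Myh4, a fast heavy chain, averaged 23.5 CPM in PBS 2 and 3, at least 623-fold higher than the 0.0377 CPM that 3 counts over PBS 4 to 6 would give. Myh13, the heavy chain known from extraocular muscle, averaged 14.9 CPM and was at least 395-fold higher. Myoz1, a protein of the Z disc, was at least 68.8-fold higher. The floors cover counting error only. Ube2c, a cell cycle ubiquitin enzyme, also passed (3.42, adjusted p = 0.00188), at 4717, 21.9 and 26.8 CPM against 2.43, 1.98 and 2.39 CPM. It overlaps Tnnc2, a troponin of fast muscle, on the opposite strand, and 0 of the other 20 cell cycle genes passed. Des, which encodes desmin, the intermediate filament of muscle cells, passed as well (1.66, adjusted p = 0.0328).

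Surface epithelium showed the same order of libraries with larger spread. The list of mucosal epithelium genes was written after the values of some of its genes were seen. Its genes took 0.576%, 0.0169% and 0.0441% of counts in PBS 1 to 3 and 0.00901% to 0.0126% in PBS 4 to 6. Of 18 genes 15 were tested, 6 of them through the first set only, and 1 passed. That gene was Krt4, a keratin of moist surfaces, at 735, 6.20 and 20.1 CPM against 0, 0.0412 and 0.0332 CPM (adjusted p = 0.0222). Psca, a surface antigen of such epithelia that is not on the list, passed too, at 34.2, 10.5 and 25.8 CPM against 0.0398, 0.0824 and 0 CPM (adjusted p = 0.0207). Krt4 and Psca both entered the test only through the first set, so their values are descriptions. Plet1, another epithelial surface protein, was at 243, 30.2 and 196 CPM against 0.637, 0.371 and 0.631 CPM and did not pass (7.67, adjusted p = 0.121). Muc5ac, the gel mucin of goblet cells, had no count in PBS 4 to 6 and was at least 254-fold higher in PBS 2 and 3, but did not pass (adjusted p = 0.209).

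Of 15 retina genes 10 were tested and 0 passed. With PBS 1 only 6 were tested, and 4 of the 10 had under 10 counts in every library of PBS 4 to 6, so they entered through PBS 2 and 3. The list took 0.00362%, 0.0192% and 0.00691% of counts in PBS 1 to 3 and 0.00289% to 0.00306% in PBS 4 to 6. PBS 2 was the highest, PBS 3 next, and PBS 1 lay just above PBS 4 to 6. Prph2, a protein of photoreceptor discs, had no count in PBS 4 to 6 and was at least 187-fold higher in PBS 2 and 3, and it did not pass (adjusted p = 0.149). Of 5 lens genes tested 0 passed, and 2 of them, Cryaa included, entered the test only through the first set. Cryaa, a crystallin, was at 101, 1.63 and 28.9 CPM against 0.358, 0.0824 and 0.0996 CPM (6.39, adjusted p = 0.204). Bfsp2, a filament protein of lens fibres, had the opposite sign, at 11.6, 10.6 and 13.8 CPM against 24.0, 31.7 and 27.8 CPM (-1.19 ± 0.18, adjusted p = 0.0577).

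No gene of the glia and neuron lists passed. In the lists of mature, newly formed and precursor oligodendrocytes, astrocytes, neurons and microglia, 0 genes passed, and the medians lay between -0.19 and 0.12. Mbp, a main protein of myelin, had a log2 fold change of 0.12 ± 0.16. Gfap, the filament of astrocytes, was somewhat higher (0.55 ± 0.14, adjusted p = 0.146). Nf1 itself was at 29.0, 72.1 and 66.7 CPM against 75.6, 78.5 and 78.2 CPM (-0.16 ± 0.08, adjusted p = 0.405), and PBS 1 was the lowest.

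Of 10 endothelial genes 0 passed, 4 were lower at an unadjusted p under 0.05, and the median was -0.23. Of 13 genes of meninges and fibroblasts 0 passed in edgeR and 4 in DESeq2, 6 were lower at an unadjusted p under 0.05 and 0 higher, and the median was -0.42. Of 11 genes of mural cells, which wrap vessels, Des alone passed, and the median was -0.37.

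**Figure D2:**
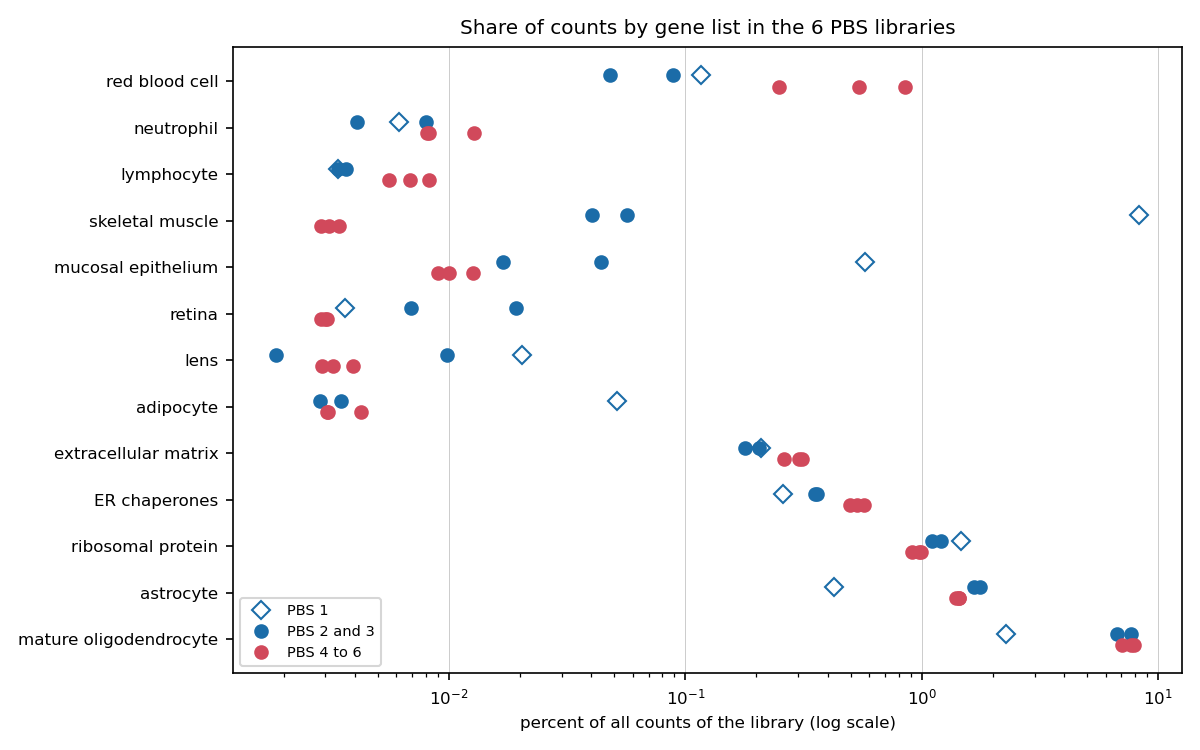
Percent of all counts of a library (log axis) that fell in each of 13 gene lists, for the 6 PBS libraries. Open diamonds are PBS 1, blue circles PBS 2 and 3 and red circles PBS 4 to 6. Red blood cell, lymphocyte and ER chaperone genes lie lower in PBS 1 to 3, muscle and mucosal epithelium genes lie higher there, and PBS 1 stands alone for muscle at 8.29%.

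Some other groups also separated the sets. Matrix genes, on a list written after the values of 8 members were seen, were lower: of 27 genes 8 passed and fell, all 8 of them those already seen. At an unadjusted p under 0.05 there were 20 lower and 0 higher, and the median was -0.61. These values include the 8 genes already seen, so they are descriptions. Lox, the enzyme that cross-links collagen and elastin, was at 9.40, 11.0 and 12.6 CPM against 27.4, 25.0 and 22.6 CPM (-1.08 ± 0.14, adjusted p = 0.0363). Fbln5, which helps to assemble elastic fibres, was at 39.4, 26.4 and 23.3 CPM against 48.2, 57.2 and 49.9 CPM (-1.06 ± 0.12, adjusted p = 0.0267). Serpinh1, the collagen chaperone of the ER, and P4ha1, which hydroxylates collagen there, fell too (-0.80 and -0.82, adjusted p = 0.0455 and 0.0219). Fstl1, a glycoprotein secreted by stromal cells, was lower in PBS 2 and 3 than in PBS 4 to 6 (-1.02, adjusted p = 0.0325).

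The lower genes also included 2 that PBS 1 did not share or that have near copies. Abca8a, a lipid transporter, was at 98.8, 10.6 and 12.03 CPM against 24.7, 25.8 and 26.4 CPM. PBS 1 was the highest of all, so the log2 fold change was -1.18 ± 0.12 without it (adjusted p = 0.0212) and 0.65 with it. Serpina1b, a protease inhibitor of the liver, was at 1.30, 0.126 and 0.164 CPM against 12.98, 7.21 and 12.2 CPM (-6.16 ± 0.44, adjusted p = 0.00418). With so few counts in PBS 2 and 3, it entered the test only through PBS 4 to 6, and its fold change has no exact size. It belongs to a cluster of near-identical genes whose reads may be shared. Spon2, a secreted matrix protein, fell by 3.37 on the log2 scale (adjusted p = 0.0229).

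Ribosomal protein genes had small positive values. Of 30 genes 0 passed, 26 had the 2 sets apart and higher in PBS 2 and 3 and 1 apart and lower, beside 17.7% and 16.9% of all genes, and the median was 0.28 (DESeq2 14 higher and 1 lower). Rps6, of the small subunit, was at 559, 408 and 378 CPM against 240, 277 and 273 CPM (0.57, adjusted p = 0.0732). The smallest adjusted p of all belonged to Gm8730, a processed pseudogene, at 7.02, 65.5 and 71.7 CPM against 1.91, 1.53 and 1.73 CPM (5.31 ± 0.13, adjusted p = 5.08e-05). It was chosen here after its values were seen, and reads of such copies cannot be told from those of their parent genes.

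Ddit4, an inhibitor of mTORC1 that glucocorticoids and low oxygen induce, was at 39.4, 87.0 and 91.3 CPM against 46.5, 45.0 and 44.2 CPM. PBS 2 and 3 were above all others and PBS 1 was the lowest of the 6 (0.98 ± 0.08, adjusted p = 0.00814). Ddit4 and Per1 were the 2 passed genes among 17 of a glucocorticoid response list, whose median was 0.03. Of 23 immediate early genes 0 passed, 10 had the sets apart and higher in PBS 2 and 3 and 2 apart and lower, beside the same 17.7% and 16.9%. Klf2, a factor induced by blood flow, was at 71.8, 30.5 and 42.5 CPM against 17.2, 12.7 and 13.5 CPM (1.33 ± 0.19, adjusted p = 0.0513). Ier3, an early stress gene, had a log2 fold change of 1.22 (adjusted p = 0.0783).

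**Figure D3:**
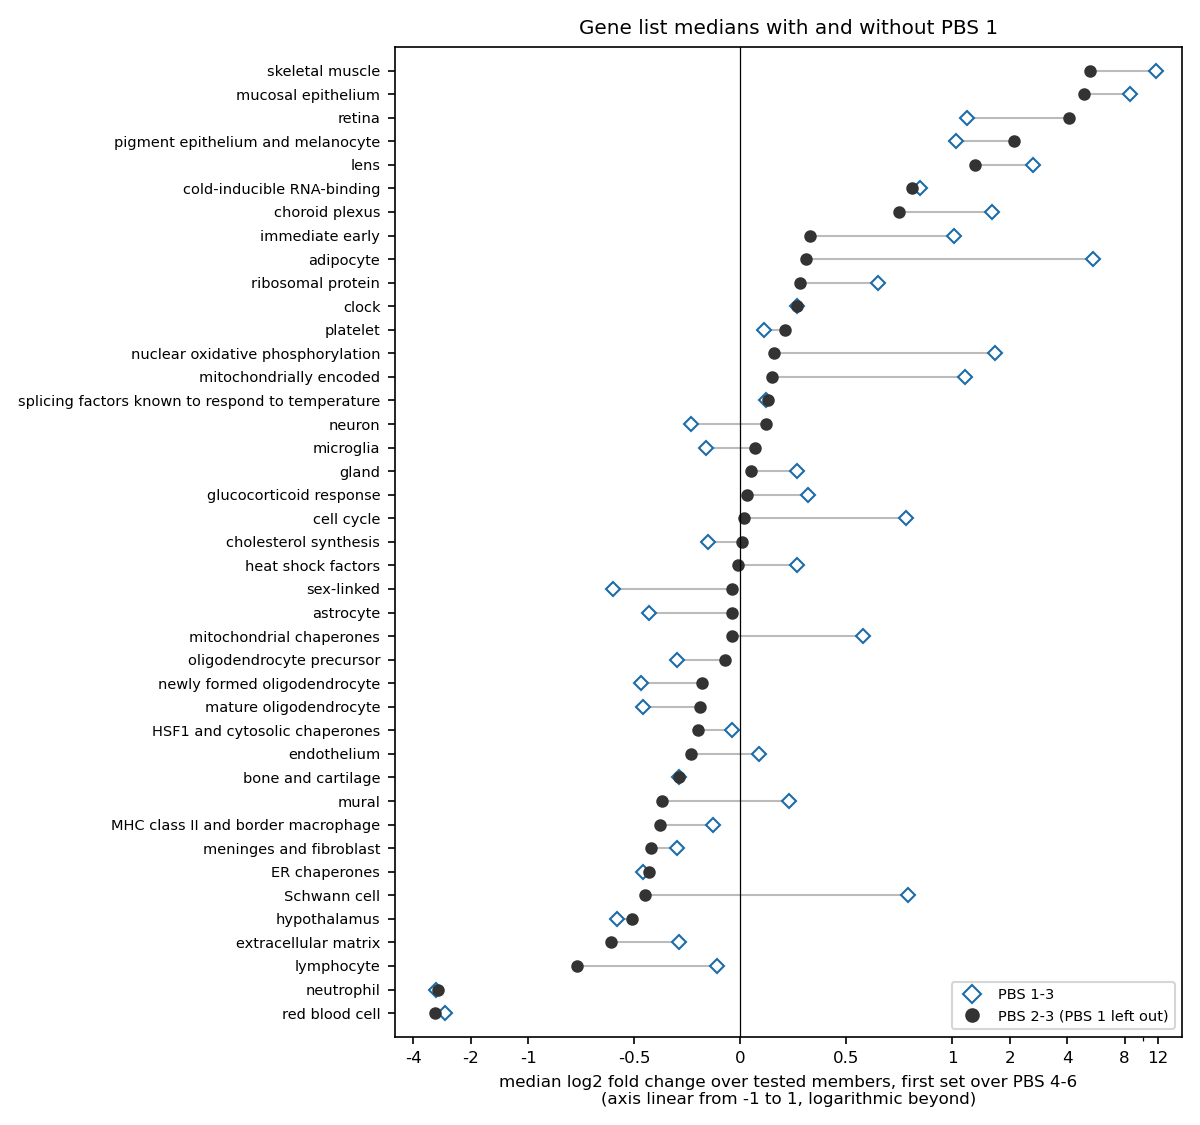
Median log2 fold change against PBS 4 to 6 over the tested members of each of 41 gene lists, with PBS 1 (open diamonds) and without it (filled circles). The axis is linear from -1 to 1 and logarithmic beyond. Lists such as clock, ER chaperones, neutrophil and red blood cell genes keep their place, while muscle moves from 11.72 to 5.28 and mitochondrial chaperones from 0.58 to -0.04.

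The same genes were then read in the 6 treated libraries, which share no library with the controls. Carboplatin was compared with selumetinib, and here drug, library number and, for some libraries, sex-linked genes cannot be told apart: carboplatin 1 and all 3 selumetinib libraries had no count of Ddx3y. Of 17358 genes 1359 were higher in carboplatin (7.83%) and 1515 lower (8.73%). Leaving out selumetinib 3 raised the count of passed genes to 8036, and leaving out carboplatin 1, selumetinib 1 or selumetinib 2 brought it to 0.

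Of the 54 genes higher in PBS 2 and 3, 51 had a positive log2 fold change in carboplatin over selumetinib and 38 passed there, all higher. The 30 genes very high in PBS 1 made up 26 of these 38. Some of the 54 had entered the control comparison only through PBS 2 and 3, so these counts are descriptions. Muscle genes took 0.328%, 0.259% and 0.0184% of counts in the carboplatin libraries, so muscle varied there as well, and its part was not tested. Of the 24 others 21 had the same sign and 12 passed. Of the 31 genes lower in PBS 2 and 3, 30 were tested, 23 had a negative sign and 1 passed, Ccr2 (-2.78, adjusted p = 0.0447).

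Of the 25 clock genes 4 passed here and were higher in carboplatin, 0 were lower, and the median was 0.21. Both cold-inducible genes passed. Whether values differ between the control and the treated comparison was not tested. Rbm3 was at 145.5, 120.3 and 134 CPM in carboplatin and at 40.5, 38.7 and 39.6 CPM in selumetinib, with no overlap (1.75, adjusted p = 0.0116). Cirbp passed there (0.94, adjusted p = 0.0419), as did Per1, at 144, 99.9 and 136 CPM against 47.1, 38.7 and 33.6 CPM (1.66, adjusted p = 0.0213). Ddit4 was at 463, 209.8 and 374 CPM against 31.4, 31.2 and 46.0 CPM (3.27, adjusted p = 0.0194). Dbp, by contrast, was at 74.6, 90.5 and 52.4 CPM against 63.3, 60.4 and 55.2 CPM, and the drug groups overlapped (0.28, adjusted p = 0.378). All 6 treated values of Dbp lay between those of the 2 control sets. Hspa5 was at 286, 232 and 327 CPM against 369.5, 353 and 384 CPM (-0.39, adjusted p = 0.155). The ER chaperone list took 0.278% to 0.347% of counts in carboplatin and 0.386% to 0.429% in selumetinib, all below the 0.498% to 0.568% of PBS 4 to 6. Gene by gene, 18 of the 35 had a positive and 17 a negative log2 fold change (median 0.08), and 2 passed in each direction.

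**Figure D4:**
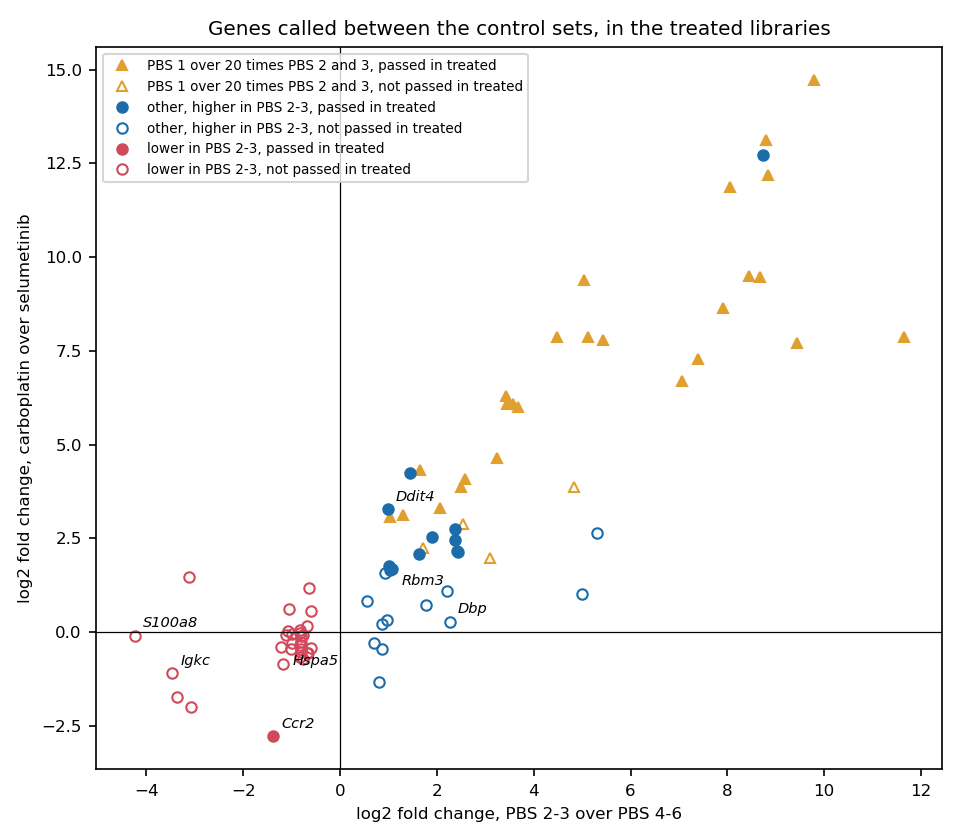
Log2 fold change between the control sets without PBS 1 (horizontal) against that between carboplatin and selumetinib (vertical), for the passed genes of the control comparison tested in both. Filled symbols passed in the treated libraries, triangles are genes over 20 times as high in PBS 1 as in PBS 2 and 3, and fitted values of genes with hardly any counts in a group have no exact size. On the vertical axis Rbm3 lies at 1.75, Ddit4 at 3.27, Dbp at 0.28 and Hspa5 at -0.39.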

How the data were processed

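The 12 optic nerve libraries were grouped by title and treatment label. A single table of whole-number read counts for 35275 genes was deposited by the authors, with a column for each library. The tools that made it were FastQC, Trimmomatic, STAR and HTSeq on build mm10, and DESeq2 is listed too, per the submitters' processing notes. Versions, annotation release and strand setting are not given in the sources used here. Of the gene IDs, 34490 were found in GENCODE M21 (GRCm38, equal to mm10), which gave coordinates and overlaps, and 24209 genes had a count in a PBS library. PBS 1 to 6 held 29510138, 22558698, 29779508, 23632330, 23489372 and 29009101 counts. The deposited counts set the precision, which is low for genes near 1 CPM.

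Counts were filtered with filterByExpr (minimum count 10, minimum total 15), normalised by TMM and fitted in R 4.3.3 with the robust quasi-likelihood method of edgeR 4.0.16, with Benjamini-Hochberg adjustment over all genes tested, in each of 3 fits: PBS 1 to 3 against PBS 4 to 6, the same without PBS 1, and carboplatin against selumetinib. Each fit used the libraries compared and no covariate. The SE printed is the absolute log2 fold change divided by the square root of the F statistic, derived from the test. The fit was tested on simulated counts.

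Alternatives were DESeq2 1.42.0, limma 3.58.1 (voom, weighted by library quality), upper-quartile and RLE factors, no filter, 1 CPM in 3 libraries, 1 model of all libraries, and each library left out in turn. The log2 fold changes of named genes under these settings, for the fit without PBS 1 and for the treated libraries, were added after the data were seen.

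The sets, members and 41 gene lists (618 genes, 613 matched by symbol, 3 by ID, 2 unmatched) were chosen with earlier results of these data known, and the mucosal epithelium and extracellular matrix lists after values of this comparison were seen. Named genes were the largest changes among the passed genes, at most 12 in either direction, if the mean log2 CPM was 1 or more, the sets were apart and the symbol was not a predicted one. Where fewer than 5 passed, the 5 with the smallest p were taken. Passed members of the clock, cold, chaperone and blood lists, the 3 members with the smallest p of the other lists, and Nf1, Per1, Per2, Nr1d1, Dbp, Arntl, Rbm3, Cirbp, Hspa1a, Hspa1b, Hsph1, Hspa8, Hspa5, Hsp90b1, Hbb-bs, Hba-a1, Alas2, S100a8, S100a9, Acta1, Ckm, Mbp, Xist and Ddx3y were added. A few of these are not reported here, and further members named for their role were chosen after their values were seen. Genes alike to Rbm3 or Hspa5 were the 5 with the highest Spearman correlation over the 12 libraries.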

Additional observations from a re-analysis of the deposited data

Results flagged for a closer look

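The share of counts of each of the 41 gene lists was checked over the 6 PBS libraries for a library whose gap to the nearest other as a share of the whole range exceeded Dixon's 95% critical value for 6. Chance flags about 1 in 20 groups. Here 21 lists met it, 19 with PBS 1 as the far library and 2 with PBS 2.

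PBS 1 was highest for skeletal muscle genes (8.29% of its counts, 0.00289% to 0.0569% in the other 5), for mucosal epithelium (0.576%, others 0.00901% to 0.0441%), adipocyte (0.0516%, others 0.00285% to 0.00423%), mural (0.219%, others 0.0517% to 0.0724%), choroid plexus (0.0188%, others at most 0.00532%) and gland genes (0.00523%, others at most 0.00275%). It was also highest for mitochondrially encoded genes (10.6%, others 2.85% to 4.36%), nuclear oxidative phosphorylation (1.76%, others 0.341% to 0.410%), mitochondrial chaperones (0.122%, others 0.0657% to 0.0717%), the cell cycle list that holds Ube2c (0.360%, others 0.0141% to 0.0170%) and sex-linked genes (0.0310%, others 0.0150% to 0.0206%).

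PBS 1 was lowest for mature oligodendrocyte (2.27%, others 6.69% to 7.90%), newly formed oligodendrocyte (0.0867%, others 0.237% to 0.274%), oligodendrocyte precursor (0.0384%, others 0.135% to 0.149%), astrocyte (0.427%, others 1.39% to 1.76%), microglia (0.0537%, others 0.146% to 0.171%), meninges and fibroblast (0.451%, others 1.13% to 1.32%), bone and cartilage (0.000851%, others 0.00231% to 0.00280%) and cholesterol synthesis genes (0.130%, others 0.287% to 0.350%).

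PBS 2 was highest for retina genes (0.0192%, others 0.00289% to 0.00691%) and for pigment epithelium and melanocyte genes (0.0109%, others 0.00247% to 0.00318%).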

How the results depend on the processing

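No paired analysis was possible because the 2 control sets share no replicate number. With PBS 1, the count of passed genes was 0 in the reported fit, 410 in DESeq2, 17 in voom, 1 in a model of all libraries, and 0 to 85 with a library left out (85 without PBS 1, 4 without PBS 2). Without PBS 1 it was 85, and 1080 in DESeq2, 266 with no filter, 9 in the model of all libraries and 8 to 650 with a library left out. It was 88, 88, 72 and 68 with RLE, upper-quartile, voom and the 1 CPM filter. For carboplatin against selumetinib it was 2874, and 5587 in DESeq2, 9908 in voom and 0 to 8036 with a library left out. The cause of these moves was not tested.

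Direction turned in 7 values. With PBS 1, Abca8a was at -1.07 in voom and at -1.18 to 1.1 with a library left out, Hspb1 at -0.60 and -0.67 to 0.47 (both lowest without PBS 1), and Hspa8 at -0.69 to 0.13 (0.11 without PBS 2, 0.13 without PBS 3). Dbp in the treated libraries was at -0.01 in voom. For the comparison without PBS 1, of the values under other settings 437 kept direction and side of the threshold, 60 came to pass and 47 no longer passed. With a library left out these were 259, 41 and 90. Of the 31 genes lower in PBS 2 and 3, 0 passed under every left-out library, and of the 54 higher 6 did. The comparison rests on 2 libraries against 3, with 22558698 to 29779508 counts each.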
